A study of Homo sapiens with 3 samples.

Results

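The genes described here are 57 factors that assemble ribosomes in the nucleolus, listed by symbol for what their proteins are known to do, with earlier results of these data known. All 57 were found in the deposited table of 60930 genes, and all 57 were among the 13629 genes compared, whose TPM averaged 1 or more. RNA-seq covered PC3, an androgen-independent prostate cancer cell line, in 3 libraries. They came from stable puromycin-selected cells that expressed a control construct (shCON, which the labels also call RFP) or a hairpin, shUSP16#1 or shUSP16#2, cloned in the lentiviral vector pLKO.1; whether the lines were pools or clones is not given in the sources used here. The hairpins target USP16, a deubiquitinase of histone H2A that the study examined as a regulator of c-Myc. Each condition had 1 library, so no difference below has a replicate check, no p-value is given, and an effect of the knockdown cannot be told apart from any other difference between the cell populations or the libraries. Fewer cells in a given state and less RNA per cell cannot be told apart in such bulk samples.

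Ribosome production starts with transcription of ribosomal RNA genes by RNA polymerase I. Small nucleolar ribonucleoproteins of the box C/D and box H/ACA classes then methylate and pseudouridylate the precursor, the small-subunit processome folds and cleaves its 5' part, and a separate set of factors builds and exports the large subunit. c-Myc is known to drive many of these genes in cancer cells through the E-box, the palindrome CACGTG bound by its dimer with MAX.

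The knockdown itself was visible in USP16, whose transcript was at 19.9, 3.50 and 1.08 TPM in shCON, shUSP16#1 and shUSP16#2. TPM values correct the reads of a gene for its length and give every library an equal total, so depth is unknown and levels of different genes can be set side by side. The epithelial genes KRT8 and KRT18 were at 622 TPM or more in every library, while KLK3, a gene of androgen-responsive prostate cells, was listed at 0.

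Most ribosome assembly factors were lower in both USP16 knockdown libraries than in shCON. Changes are differences in log2(TPM + 1), which understate the change of low genes. Against shCON the median change of the 57 factors was -0.67 under shUSP16#1, ranging from -1.44 to 0.28, and -0.86 under shUSP16#2, ranging from -1.89 to 0.02. The median of all genes tested was itself -0.17 and -0.37, and relative to it the factors stood at -0.50 and -0.49. At least a 1.5-fold lower level was found for 35 factors under shUSP16#1, or 61.4%, against 23.2% of all genes tested. Under shUSP16#2 it was found for 39 factors, or 68.4%, against 38.5% of all genes. No factor was at least 1.5-fold higher under either hairpin, whereas 8.72% and 7.32% of all genes were. Both comparisons use the same shCON library, so they are not independent of each other.

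Centring each library on the median of all genes left 24 and 27 factors at least 1.5-fold lower, against 14.2% and 21.4% of all genes, and 0 factors higher, against 14.3% and 18.6%. With a 2-fold threshold and no centring, 9 factors were lower under shUSP16#1 and 26 under shUSP16#2, where 5.76% and 19.5% of all genes were. Together the 57 factors held 0.786% of all TPM in shCON, 0.546% under shUSP16#1 and 0.485% under shUSP16#2.

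**Figure D1:**
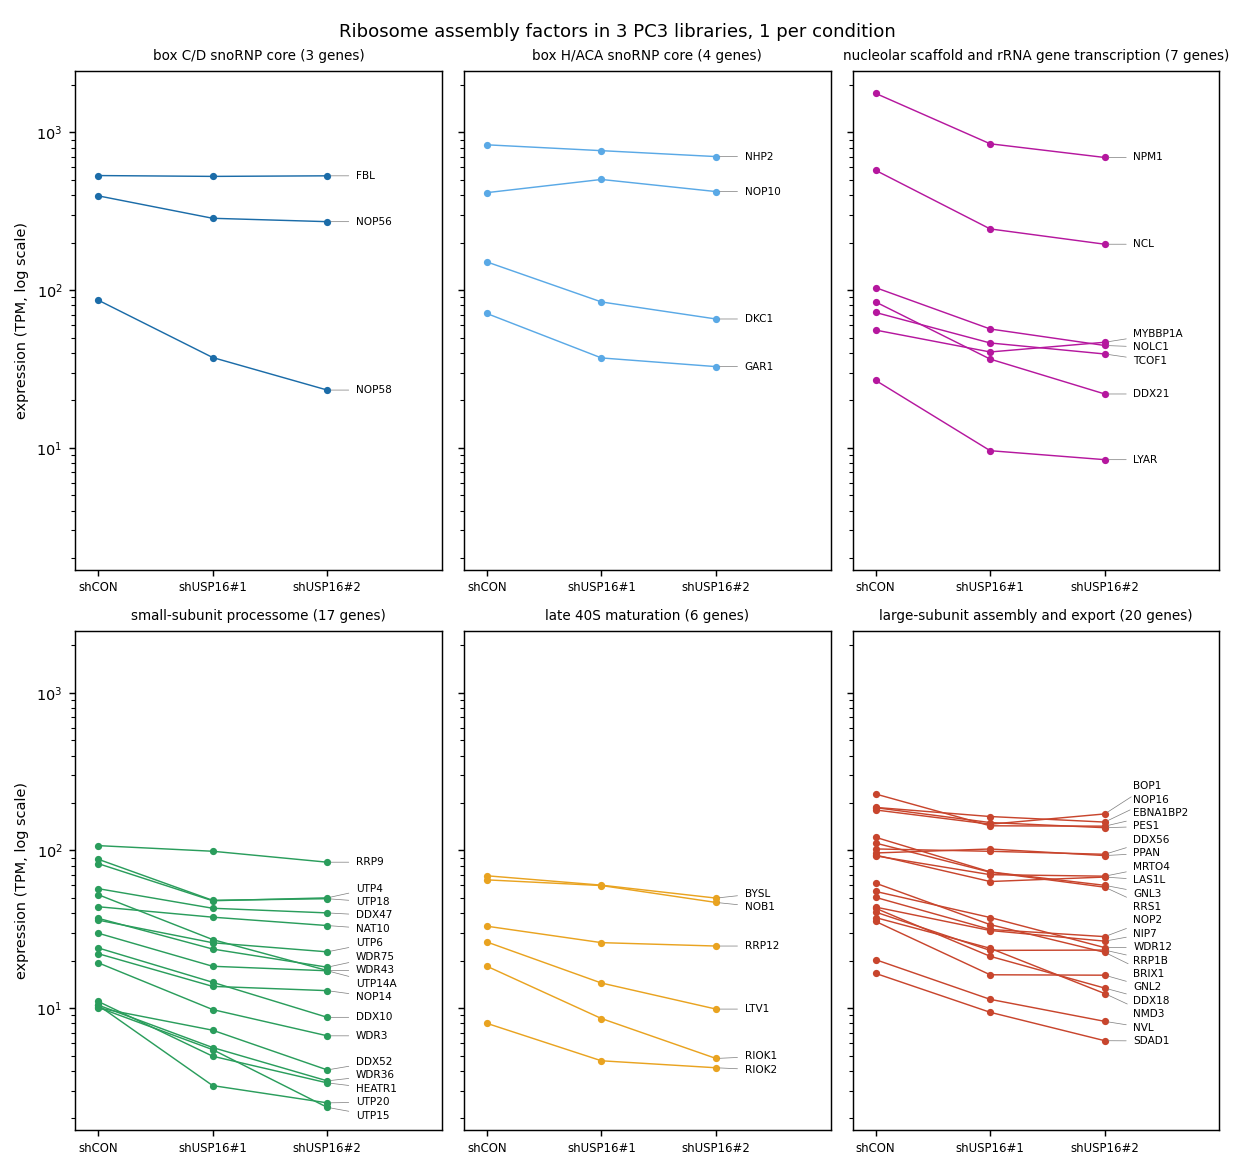
Expression of the 57 assembly factors in TPM (log axis) in the shCON, shUSP16#1 and shUSP16#2 libraries, with 1 line per gene and 1 panel per assembly step. NPM1 is the most abundant, at 1772 TPM in shCON, and most lines slope down from shCON, while FBL, NHP2, NOP10, PPAN and DDX56 stay nearly level.

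E-boxes were common at the start sites of these genes. RefSeq promoter windows (GRCh38.p14, from 250 bases before to 50 bases after the start) were matched by symbol for 48 of the 57 factors, and CACGTG, which reads the same on both strands, was present in 23 of them (47.9%). It was present in 12.8% of the 9522 tested genes with a window, and in 7.26% of all 35116 windows. In 20 of the 48 factors (41.7%) it lay within 50 bases of the start, against 5.47% of the tested genes. A match is a description of the sequence and not evidence of binding. The windows below were chosen to show the motif in 6 genes at least 1.5-fold lower under each hairpin and in FBL and NOP10, which were not. Each shows 30 bases, 5' to 3' on the strand of the gene, with the E-box in capitals.
GNL2: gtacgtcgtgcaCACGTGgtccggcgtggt
WDR43: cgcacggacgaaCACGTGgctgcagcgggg
UTP20: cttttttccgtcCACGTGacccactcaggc
DDX21: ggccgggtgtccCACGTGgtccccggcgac
LYAR: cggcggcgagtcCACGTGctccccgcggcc
GAR1: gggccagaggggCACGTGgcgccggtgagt
FBL: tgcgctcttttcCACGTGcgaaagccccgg
NOP10: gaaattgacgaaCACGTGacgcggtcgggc

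These windows lie at chr1:37595917-37595946 (minus strand) for GNL2, chr2:28894658-28894687 (plus) for WDR43, chr12:101280083-101280112 (plus) for UTP20 and chr10:68956604-68956633 (plus) for DDX21. The others lie at chr4:4290068-4290097 (minus) for LYAR, chr4:109815781-109815810 (plus) for GAR1, chr19:39846356-39846385 (minus) for FBL and chr15:34343130-34343159 (minus) for NOP10. Counted from the first transcribed base as position 1, the motif began at 4 in GNL2 and WDR43, -10 in UTP20, -31 in DDX21, -64 in LYAR, 32 in GAR1, 7 in FBL and -11 in NOP10.

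Lower factors were found both with and without an E-box. The 23 factors with the motif had median changes of -0.67 and -0.76, and the 25 without it had -0.63 and -1.15. These medians take no account of GC content, which the changes followed, as described below. A role of the motif in the changes was not tested. Among other assembly factors the motif was present in 11 of 30 genes of the small subunit, 9 of 35 of the large subunit and 0 of 6 of snoRNP assembly, and among cytosolic ribosomal proteins in 4 of 63.

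**Figure D2:**
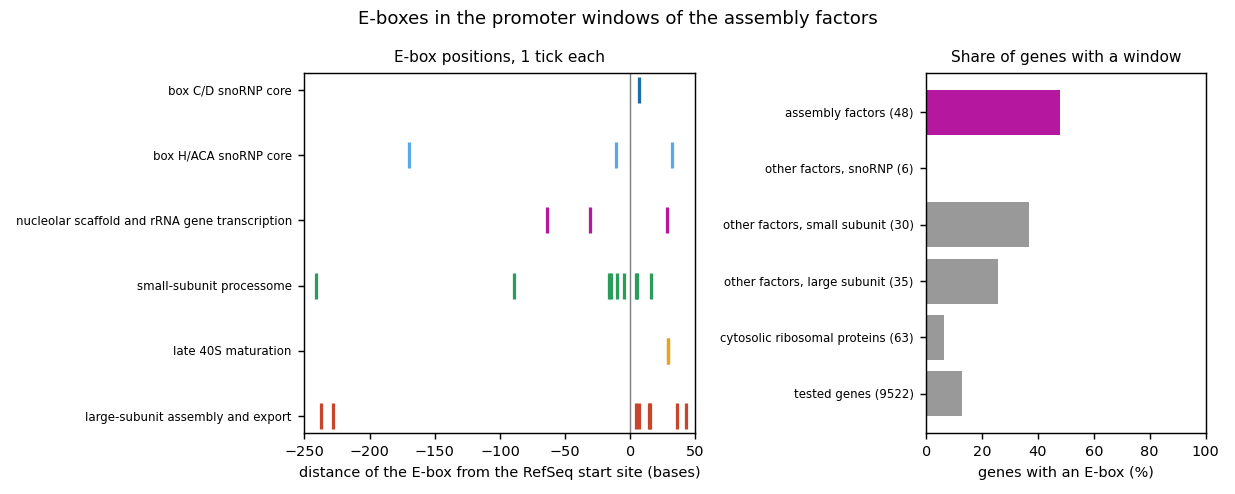
Left, distance in bases of each E-box from the RefSeq start site (grey line at 0), with 1 tick per motif in the windows of the assembly factors and 1 row per step; the ticks of BYSL and LTV1 coincide at 29. Right, percent of genes whose window holds the motif (number of genes with a window in parentheses); assembly factors stand at 47.9% and tested genes at 12.8%.

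To compare the steps of assembly, the 57 factors were divided into 6 groups by the known role of each protein, although several act at more than one step. The group of nucleolar scaffold and rRNA gene transcription proteins was lowest, with medians of -0.89 and -0.98 relative to all genes tested. The small-subunit processome followed with -0.52 and -0.62, then large-subunit assembly and export with -0.45 and -0.42. The late 40S maturation factors (6 genes) stood at -0.34 and -0.26. The box H/ACA core (4 genes) was at -0.31 and -0.30 and the box C/D core (3 genes) at -0.30 and -0.18. All of these steps lay below the median of all genes under each hairpin, but they overlapped broadly, since every step held at least 1 factor that was less than 1.5-fold lower.

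**Figure D3:**
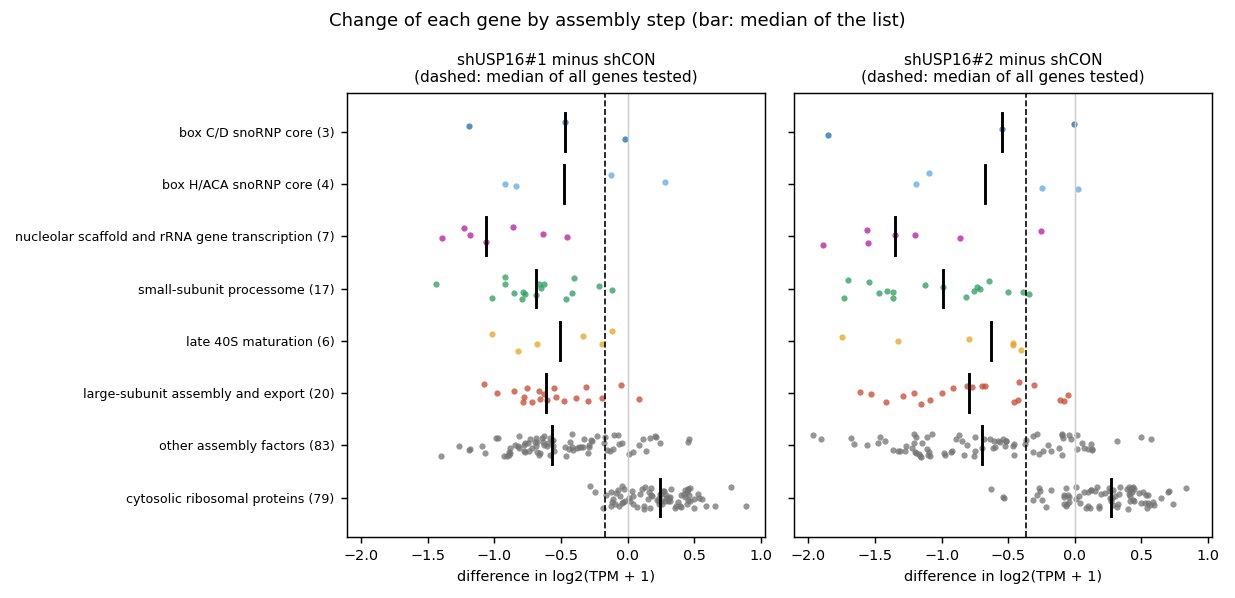
Difference in log2(TPM + 1) from shCON for each gene under shUSP16#1 (left) and shUSP16#2 (right), by assembly step and for 2 further lists, with the number of genes in parentheses. Bars mark list medians and the dashed line the median of all genes tested (-0.17 and -0.37); the scaffold group is centred at -1.06 and -1.35, and the cytosolic ribosomal proteins at 0.24 and 0.27.

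The members of the box C/D core, which carries out 2'-O-methylation, differed from one another. FBL, the methyltransferase itself, was at 533, 527 and 531 TPM in shCON, shUSP16#1 and shUSP16#2, a change of -0.02 and -0.01. NOP56, a scaffold of the particle, was at 397, 286 and 272 TPM. NOP58, the partner of NOP56, was at 86.6, 37.4 and 23.3 TPM, which is 43.2% and 26.9% of its level in shCON. NOP58 was beyond 1.5-fold under each hairpin and NOP56 was not, although NOP56 passed it with the GC trend subtracted, at -0.74 and -0.88 against shCON.

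The box H/ACA core, which pseudouridylates rRNA and also forms part of telomerase, was likewise split. DKC1, the pseudouridine synthase dyskerin, was at 151, 84.2 and 65.7 TPM in shCON, shUSP16#1 and shUSP16#2. GAR1 was at 71.2, 37.2 and 32.8 TPM. Both were at least 1.5-fold lower under each hairpin, with DKC1 at -0.84 and -1.19 and GAR1 at -0.92 and -1.10. The small RNA-contacting subunit NHP2 was at 835, 767 and 703 TPM, or -0.12 and -0.25, and at -0.36 and -0.61 against shCON with the GC trend subtracted. NOP10, the smallest core protein, was at 415, 504 and 422 TPM, and its change of 0.28 under shUSP16#1 was the highest of all 57 factors. Among the 57, the subunits that stayed nearly level in TPM were thus also among the more abundant ones of each particle. SNU13, a snoRNP protein outside the 57, was nearly level although less abundant than NOP56. It was at 190, 184 and 178 TPM, or -0.05 and -0.09.

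Of the proteins that organise the nucleolus or act at the ribosomal RNA genes, 6 of 7 (85.7%) were at least 1.5-fold lower under each hairpin. The shares of all genes were 23.2% and 38.5%. NPM1 (nucleophosmin), an abundant histone and ribosome chaperone, was at 1772, 848 and 694 TPM in shCON, shUSP16#1 and shUSP16#2. NCL (nucleolin), an RNA-binding protein of the dense nucleolar regions, was at 576, 245 and 196 TPM. Their levels under the hairpins were 47.9% and 39.2% of shCON for NPM1, and 42.5% and 34.0% for NCL. DDX21, an RNA helicase that acts on ribosomal RNA gene transcription and snoRNAs, was at 84.3, 36.6 and 22.0 TPM, or -1.18 and -1.89. LYAR, a nucleolar zinc-finger protein, was at 26.8, 9.60 and 8.42 TPM. NOLC1, a chaperone of snoRNPs, was at 104, 56.8 and 44.6 TPM. TCOF1, also called treacle, links the polymerase to its genes and was at 72.3, 46.3 and 39.4 TPM, or -0.63 and -0.86. MYBBP1A was the exception at 55.9, 40.6 and 46.8 TPM, or -0.45 and -0.25, although it passed 1.5-fold with the GC trend subtracted. It then stood at -0.80 and -0.75 against shCON. NPM1 has 46 pseudogenes in the table, which summed to at most 1.52% of its own TPM in any library.

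In the small-subunit processome 12 of 17 factors (70.6%) were at least 1.5-fold lower under shUSP16#1 and 14 of 17 (82.4%) under shUSP16#2. The shares of all genes were 23.2% and 38.5%. The UTP-A complex binds the precursor first. Its members UTP4 (82.6 TPM in shCON, then 48.0 and 50.1 TPM) and HEATR1 (11.1, 4.96 and 3.36 TPM) were both lower, as were UTP15 (10.1, 5.46 and 2.35 TPM) and WDR43 (52.5, 27.2 and 17.3 TPM). WDR75, its other member here, was at 37.2, 23.7 and 18.2 TPM. All of these 5 were beyond 1.5-fold under each hairpin, from -0.63 in WDR75 to -1.02 in HEATR1 under shUSP16#1 and from -0.71 in UTP4 to -1.73 in UTP15 under shUSP16#2.

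The members of the UTP-B complex among the 57 were lower as well, before GC content was taken into account. Its subunits TBL3 and PWP2, outside the 57, were less than 1.5-fold lower under each hairpin. TBL3 changed by -0.10 and -0.03 and PWP2 by -0.44 and -0.27. Among the 57, UTP18 was at 88.1, 48.3 and 49.5 TPM in shCON, shUSP16#1 and shUSP16#2, and UTP6 was at 36.2, 26.0 and 22.8 TPM. WDR3 was at 19.4, 9.80 and 6.68 TPM and WDR36 at 10.5, 5.63 and 3.46 TPM. Of these members of the 57, UTP6 was under 1.5-fold for shUSP16#1, at -0.46, and just beyond it for shUSP16#2, at -0.65. Their GC content is 37.3% to 45.9%, against 63.8% for TBL3 and 56.8% for PWP2. Relative to all genes and with the GC trend subtracted, UTP18 stood at -0.51 and -0.27 and UTP6 at -0.03 and 0.13. WDR3 then stood at -0.29 and -0.37 and WDR36 at -0.20 and -0.31.

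Among the other processome factors UTP20, a large scaffold protein, was at 10.5, 3.23 and 2.51 TPM in shCON, shUSP16#1 and shUSP16#2, or -1.44 and -1.71. UTP14A, which acts with a helicase to dismantle the processome, was at 29.9, 18.4 and 17.3 TPM. NOP14 was at 22.2, 13.8 and 12.9 TPM. The helicases differed from one another. DDX10 was at 24.1, 14.6 and 8.75 TPM, DDX52 at 10.1, 7.25 and 4.06 TPM and DDX47 at 57.3, 43.0 and 40.2 TPM. Their changes under shUSP16#2 were -1.37, -1.13 and -0.50. Under that hairpin they stood at -0.42, -0.07 and 0.22 relative to all genes with the GC trend subtracted. RRP9, the protein that marks the U3 snoRNP, was at 107, 98.9 and 84.3 TPM, and the cytidine acetyltransferase NAT10 was at 44.0, 37.8 and 33.4 TPM. These last factors changed by -0.12 and -0.35 for RRP9 and by -0.21 and -0.39 for NAT10, near the median of all genes. After subtraction of the GC trend NAT10 stayed near that median, at -0.06 and -0.02 relative to it. RRP9, with 60.9% GC, then stood at -0.29 and -0.47.

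Of the late 40S maturation factors 3 of 6 (50%) were at least 1.5-fold lower under each hairpin, against 23.2% and 38.5% of all genes. These 3 were those of the lowest abundance in shCON. RIOK1, an atypical kinase of the cytoplasmic precursor, was at 18.5, 8.60 and 4.80 TPM in shCON, shUSP16#1 and shUSP16#2. RIOK2, its relative, was at 8.02, 4.64 and 4.19 TPM, changes of -0.68 and -0.80 that were -0.24 and -0.07 against shCON with the GC trend subtracted, and was the lowest of the 57 in shCON. LTV1, which is released before the final steps, was at 26.3, 14.4 and 9.87 TPM. NOB1, the nuclease that makes the 3' end of 18S rRNA, was at 65.1, 59.9 and 46.8 TPM. BYSL was at 69.1, 60.3 and 49.9 TPM and the export factor RRP12 at 33.1, 26.0 and 24.8 TPM. The last 3 changed by between -0.34 and -0.12 under shUSP16#1 and between -0.47 and -0.40 under shUSP16#2, where the median of all genes was -0.37. They were also higher in GC content, at 54.5% to 58.6%, against 36.5% to 44.7% for the others. With the GC trend subtracted and relative to all genes, NOB1 stood at -0.12 and -0.37 and BYSL at -0.25 and -0.45. RRP12 then stood at -0.43 and -0.47, LTV1 at -0.28 and -0.40 and RIOK1 at -0.61 and -1.10.

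Of the large-subunit factors, 11 of 20 (55%) were at least 1.5-fold lower under shUSP16#1 and 13 of 20 (65%) under shUSP16#2. The shares of all genes were 23.2% and 38.5%. The PeBoW complex, which is needed to process the 28S and 5.8S precursor, was uneven. WDR12 was at 55.0, 37.6 and 24.2 TPM in shCON, shUSP16#1 and shUSP16#2. PES1 was at 187, 150 and 139 TPM and BOP1 at 181, 147 and 171 TPM. WDR12 reached -1.15 under shUSP16#2, where PES1 and BOP1 stood at -0.42 and -0.08. This order depended on GC content, which is 40.2% for WDR12, 58.2% for PES1 and 65.2% for BOP1. With the GC trend subtracted and relative to all genes, WDR12 was the least lowered, at 0.00 and -0.20. PES1 then stood at -0.41 and -0.49 and BOP1 at -0.52 and -0.32.

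The helicase DDX18 was at 43.1, 21.3 and 13.4 TPM in shCON, shUSP16#1 and shUSP16#2, and BRIX1, an early assembly protein, was at 62.1, 33.9 and 22.6 TPM. The nucleolar GTPase GNL2 was at 35.5, 16.3 and 16.2 TPM, and GNL3 (nucleostemin) was at 121, 73.2 and 60.1 TPM. These 4 were at least 1.5-fold lower under each hairpin. NMD3, the adaptor that carries the large subunit out of the nucleus, was at 37.6, 24.0 and 12.4 TPM. SDAD1 was at 16.6, 9.42 and 6.22 TPM and the ATPase NVL at 20.3, 11.4 and 8.25 TPM. NMD3, SDAD1 and NVL were at -1.53, -1.29 and -1.20 under shUSP16#2.

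NOP2, an rRNA cytosine methyltransferase, was at 50.5, 31.6 and 28.4 TPM in shCON, shUSP16#1 and shUSP16#2. RRP1B was at 40.7, 23.3 and 23.4 TPM, RRS1, which helps to place the 5S particle, at 111, 72.9 and 58.5 TPM, and EBNA1BP2 at 228, 143 and 143 TPM. Each of these 4 was also beyond 1.5-fold under each hairpin, with EBNA1BP2 at -0.67 and -0.67. NIP7 was at 43.8, 31.1 and 26.6 TPM and passed 1.5-fold under shUSP16#2, at -0.70, but not under shUSP16#1, at -0.48. Relative to all genes and with the GC trend subtracted, NIP7 stood at -0.08 under shUSP16#1 and 0.02 under shUSP16#2.

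The remaining large-subunit factors were less than 1.5-fold lower under each hairpin. LAS1L, part of the nuclease that cuts the second internal spacer, was at 93.6, 63.6 and 67.9 TPM. MRTO4, which holds the place of a stalk protein, was at 92.5, 70.3 and 68.7 TPM, and NOP16 was at 188, 164 and 151 TPM. The helicase DDX56 was at 102, 98.8 and 94.6 TPM and PPAN at 96.4, 102 and 92.8 TPM. The change of PPAN was 0.08 under shUSP16#1, the only positive change among the 57 besides those of NOP10, although a change this near 0 took either sign under other scalings. PPAN has 63.2% GC and stood at -0.34 and -0.66 against shCON with the GC trend subtracted, beyond 1.5-fold under shUSP16#2. PPAN shares exons with the read-through gene PPAN-P2RY11, which was at 9.95, 9.93 and 10.6 TPM, and whether reads were divided between them is not given in the sources used here.

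The knockdown was deeper in shUSP16#2, and the factors were compared between the hairpin libraries directly. The median difference, shUSP16#2 minus shUSP16#1, was -0.23 for the 57 factors and -0.21 for all genes tested. At least a 1.5-fold lower level in shUSP16#2 was found for 10 factors (17.5%), against 16.6% of all genes, and for 0 factors a higher level, against 3.38%. The factors therefore differed between the hairpin libraries by about as much as genes in general. UTP15 and NMD3 differed most, by -0.95 and -0.90, while BOP1 and MYBBP1A were higher in shUSP16#2 by 0.22 and 0.20.

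The changes of the factors followed the GC content of their transcripts, as did those of all genes. Across the 57 factors the Spearman correlation of change with GC content was 0.60 under shUSP16#1 and 0.76 under shUSP16#2, and across 11489 protein-coding genes it was 0.60 and 0.71. Genes share the same libraries and are not independent replicates in these values. The 19 factors lowest in GC content (36.5% to 43.1%) had medians of -0.79 and -1.41, and the 3092 tested genes in the same range had -0.58 and -0.97. The 19 in the middle (43.3% to 51.3%) had -0.78 and -1.0, against -0.29 and -0.53 for 3772 genes. The 19 highest (51.6% to 65.2%) had -0.30 and -0.40, against 0.08 and 0.01 for 5253 genes. In each range the factors were therefore lower than genes of like GC content, although GC content moved with the size of the change.

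**Figure D4:**
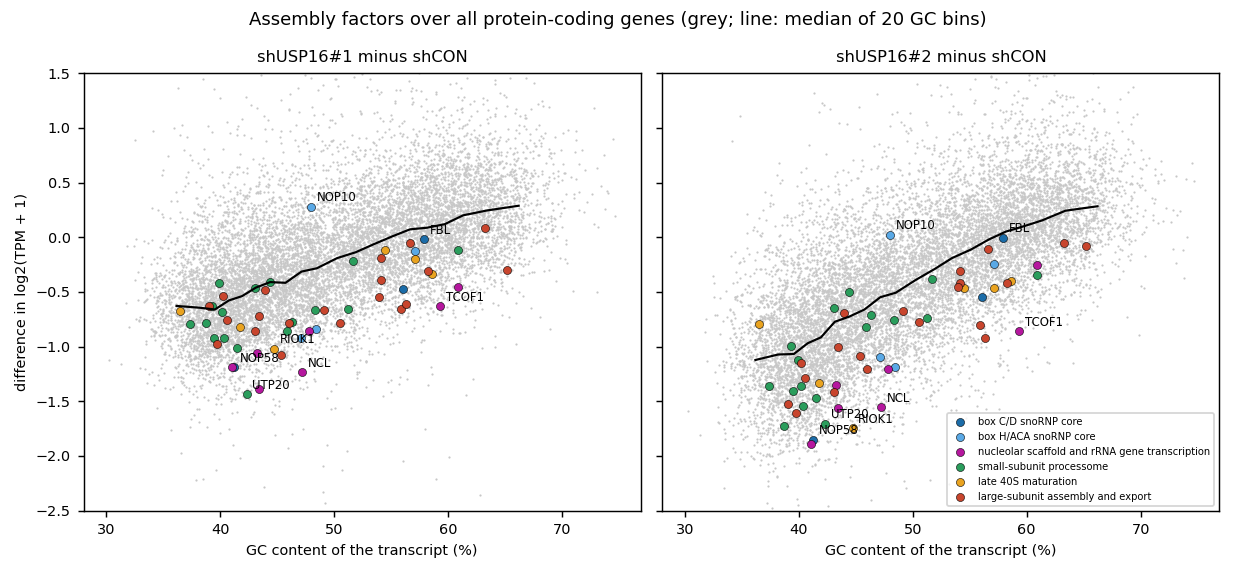
Difference in log2(TPM + 1) from shCON against transcript GC content in percent, for shUSP16#1 (left) and shUSP16#2 (right). Grey points are protein-coding genes tested (points beyond -2.5 or 1.5 are not drawn), the line joins their medians in GC bins, and coloured points are the assembly factors, of which most lie under the line and NOP10 above it.

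With the GC trend subtracted, the factors stood at -0.41 and -0.40 relative to all genes, and 52 and 51 of 57 were below the median of all genes. The order of the steps changed. The scaffold and transcription group remained lowest, at -0.63 and -0.79. The box C/D core came next at -0.56 and -0.51, and the small-subunit processome moved to -0.29 and -0.31. The box C/D core holds only 3 genes, so its median is the value of NOP56. FBL stood at -0.08 and -0.03 and NOP58 at -0.63 and -0.91. The median GC content was 42.3% for the processome, 56.0% for the box C/D core and 49.5% for all genes tested. The rank of the processome among the steps was thus not the same once GC content was taken into account, whereas TCOF1 and RRS1, with 59.4% and 56.3% GC, stood at -0.77 and -0.69 relative to all genes under shUSP16#1 and at -0.92 and -0.89 under shUSP16#2. Relative to all genes and with this subtraction, NOP10 stood at 0.52 and 0.51, UTP6 at -0.03 and 0.13, WDR75 at 0.00 and 0.04, and RIOK2 at -0.06 and 0.30. DDX52 stood at 0.24 and -0.07, DDX47 at -0.01 and 0.22 and NIP7 at -0.08 and 0.02. Length was more weakly related, with a Spearman correlation over the 57 factors of -0.29 and -0.34. The part of GC content in these changes was not tested.

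Ribosome assembly factors outside the 57 were examined as a list of 83 further genes. Their median changes were -0.57 and -0.70, with 39 (47.0%) and 47 (56.6%) at least 1.5-fold lower, against 23.2% and 38.5% of all genes, and 0 higher under either hairpin. KRR1 (42.9 TPM in shCON, then 18.3 and 10.8 TPM), ESF1 (8.95, 4.02 and 1.55 TPM) and BMS1 (32.6, 15.0 and 9.48 TPM) of the small subunit were lowest by the mean of the 2 changes, and WDR18 of the large-subunit processing machinery was highest by it at 38.2, 52.6 and 57.3 TPM. The proteins of the ribosome itself were also examined. The 79 cytosolic ribosomal protein genes had medians of 0.24 and 0.27, with 0 and 1 gene at least 1.5-fold lower. Of these genes 3 (3.8%) and 7 (8.86%) were at least 1.5-fold higher, near or below the 8.72% and 7.32% of all genes. After centring on the median of all genes, 20 and 44 of the 79 were, against 14.3% and 18.6% of all genes. The ribosomal protein list held 21%, 25.1% and 25.2% of all TPM in shCON, shUSP16#1 and shUSP16#2. Their median GC content of 49.1% is close to that of all genes, and with the GC trend subtracted they stood at 0.38 and 0.56 relative to all genes, while the median length of these genes was 797 bases against 2428 bases for the 57 factors.

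Several of the 57 genes host snoRNA genes, among them NOP56, NOP58, DKC1, NCL, GNL3, PPAN and WDR43. In the GENCODE annotation 25 snoRNA genes lie in these 7 hosts on the same strand, 14 of them within introns and 11, including those of NOP56 and DKC1, overlapping an annotated exon of a host transcript. Of the 25, 24 were listed at 0 TPM in all 3 libraries. The other, in NCL, was listed at 0 in shCON and shUSP16#1 and at 19.2 TPM in shUSP16#2. The levels of these hosts, of which PPAN changed by only 0.08 and -0.05, were therefore measured largely without values for the snoRNAs that they carry. Exons of NOP16 overlap HIGD2A on the other strand, which was at 217, 238 and 184 TPM, and exons of UTP4 overlap CHTF8 in the same way (76.7, 81.1 and 86.8 TPM). HEATR1, BRIX1 and NMD3 overlap LGALS8 (25.5, 11.3 and 8.67 TPM), RAD1 (27.6, 18.7 and 11.5 TPM) and B3GALNT1 (19.97, 9.88 and 6.17 TPM) on the other strand, and those partners were lower as well. Reads of such partners cannot be told apart without strand, and whether counting used strand is not given in the sources used here.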

How the data were processed

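Total RNA of 3 PC3 libraries was sequenced by Majorbio from Illumina TruSeq RNA libraries. The authors deposited TPM values with 2 decimals for 60930 genes, 1 column per library, made on the Majorbio Cloud Platform. The submitters' processing notes name CASAVA, HISAT2 and hg19, and the quantification tool and annotation are not given in the sources used here. The deposited table also holds a gene length, which was used, and 3 columns repeating the TPM columns, which were not. Entries repeating a name (1211) were left out, and 13629 genes averaging 1 TPM or more over the libraries were compared, as the difference of log2(TPM + 1) between a hairpin and shCON. Calls were changes of at least 1.5-fold, without a test, since each condition had 1 library. Depth is unknown, so no interval was given. The 57 genes, the lists and their steps were chosen with earlier results of these data known. In full, the rule named each factor of the snoRNP cores and, in other steps, the 3 lowest, 2 highest and 2 most abundant; TPM of all others were added. Of the 83 further factors the 3 lowest and the highest were named. TBL3 and PWP2 were added for the UTP-B complex and SNU13 for the snoRNPs. PC3 markers are given as examples, and some are not reported here.

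GC content came from the longest protein-coding, or else longest, transcript in GENCODE release 29 (GRCh38), which matched 58516 of the identifiers, and its trend was subtracted as the median change of 50 bins, with the median of all genes added back. Of the 14 genes listed for RNA polymerase I, 11 were found. Alternatives were pseudocounts of 0.1 and 5, centring, rescaling over protein-coding genes, no minimum, a minimum of 5 TPM, folds of 1.3 and 2, and subtraction of the GC trend. Subtraction of the length trend was chosen after seeing the data. The procedure was tested on simulated data. Python 3.11.15, numpy 2.4.6, pandas 2.3.3 and matplotlib 3.10.9 were used.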

Additional observations from a re-analysis of the deposited data

How the results depend on the processing

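No paired analysis was possible because there was no second library of any condition. In every alternative run the medians of the 57 factors and of each step stayed below those of all genes, and 0 factors were at least 1.5-fold higher. Medians of the factors and steps that moved by over 0.1 on the log2 scale, and counts that moved by over 1.5 times, are listed first, for shUSP16#1 and then shUSP16#2. Centring gave -0.50 and -0.49 for the 57 factors and -0.019 for the difference between the hairpin libraries, which was -0.12 after rescaling over protein-coding genes. A fold of 2 left 9 factors lower under shUSP16#1. A pseudocount of 5 gave -0.31 for the box C/D core under shUSP16#2. Without a minimum the median of all genes includes genes at or near 0 TPM, and relative to it the 57 factors stood at -0.64 and -0.76, the box C/D core at -0.44 and -0.45, the box H/ACA core at -0.45 and -0.58, the scaffold group at -1.03 and -1.25, the processome at -0.66 and -0.90, late 40S maturation at -0.48 and -0.54 and large-subunit factors at -0.59 and -0.70. Subtraction of the GC trend gave -0.56 and -0.51 for the box C/D core, -0.63 and -0.79 for the scaffold group, -0.29 and -0.31 for the processome and, under shUSP16#2, -0.42 for late 40S maturation. Subtraction of the length trend, chosen after seeing the data, gave -0.41 and -0.48 for the box H/ACA core and, under shUSP16#2, -0.28 for the box C/D core and -0.52 for the processome. The cause of these shifts was not tested. Of the 62 changes against shCON of single named factors (31 factors, 2 hairpins), all moved by over 0.1 after centring, 55 with the GC trend subtracted, 48 with the length trend subtracted, 21 with a pseudocount of 5 and 7 with one of 0.1. Of the 38 that were at least 1.5-fold lower, 5 were no longer so with the GC trend subtracted, 7 after centring, 3 with a pseudocount of 5 and 2 with the length trend subtracted. RIOK2 stood at -0.24 and -0.07 with the GC trend subtracted. With a pseudocount of 0.1 UTP15 and UTP20, at -2.06 and -2.02, were lower under shUSP16#2 than DDX21, at -1.93. Changes of 9 factors nearer 0 took the other sign in some setting (FBL, NHP2, NOP10, MYBBP1A, RRP9, NOB1, NOP16, PPAN and DDX56). Unknown depth limits most the factors under about 5 TPM under a hairpin, such as UTP20, UTP15 and HEATR1.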

Other observations

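RNA polymerase I transcribes the precursor that the assembly factors process. Of the 14 genes listed for its subunits and initiation factors 11 were found, with median changes of -0.72 under shUSP16#1 and -0.93 under shUSP16#2, against -0.17 and -0.37 for all genes tested. At least a 1.5-fold lower level was found for 6 (54.5%) and 7 (63.6%) of them, against 23.2% and 38.5% of all genes. With the GC trend subtracted the medians were -0.19 and -0.41 relative to all genes.

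The step lists of genes outside the 57 can be set beside the steps of the 57. The 34 further small-subunit factors had medians of -0.51 and -0.52, the 40 large-subunit factors -0.59 and -0.75 and the 9 factors of snoRNP assembly -0.47 and -0.61. With the GC trend subtracted they stood at -0.36 and -0.28, -0.25 and -0.33, and -0.06 and -0.01 relative to all genes. Neither result was tested against chance.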
